A study of Homo sapiens with 6 samples.

Results

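The large ribosomal subunit assembly factors are the proteins that build the 60S subunit, and 57 of their genes were followed by symbol among the 26485 genes counted in THP1 cells. Membership was set by name, as factors of 60S assembly, processing and export, and older symbols were kept (GLTSCR2 is now called NOP53). All 57 symbols had a row, 56 had enough reads to be tested, and DDX24 was listed at 0 in every library. THP1 is a human acute monocytic leukemia cell line. The cells were exposed for 6 h to withaferin A (WFA), a steroidal lactone, or to its vehicle DMSO, and 3 libraries were sequenced for each group, 1 per independent experiment. The sample labels give the WFA concentration as 1 mM, whereas the study's methods give 1 μM, and no other agent or genetic change separated the groups. A single cell line was used, so spread between libraries is spread between experiments on the same line.

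Ribosome production begins in the nucleolus, where RNA polymerase I makes a long precursor that holds the 18S, 5.8S and 28S rRNAs. The 28S and 5.8S part folds onto ribosomal proteins with the help of assembly factors that bind and leave in order. Early factors act in the nucleolus on the first pre-60S particles. Later factors remodel the particle in the nucleoplasm, cut out the internal transcribed spacer ITS2, escort the particle through the nuclear pore and are stripped off in the cytoplasm. Fast growing leukemia cells make many ribosomes, and these genes are commonly expressed together in such cells. The members were therefore sorted by role, with 34 placed as early, 20 as late and 3 as neither.

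Total counts lay between 11006035 and 13872810 per library. Levels are given as CPM, the usual per-library read share, after scaling of each library by the TMM method, and values for a gene are listed in the order of replicates 1, 2 and 3. The cells carried RNA of the monocytic lineage in both groups, with the 10 myeloid markers summing to between 2953 and 3479 CPM with DMSO and between 2592 and 3320 CPM with WFA, of which LYZ alone gave 1381 to 2090 CPM. Of these markers 5 fell, with log2 fold changes of -0.85 for CD33, -0.82 for CYBB, -0.42 for FCER1G, -0.40 for CSF1R and -0.34 for SPI1, and CD68 rose by 0.37. Of 12 markers of other lineages, 11 stayed under 2 CPM in every library, and GATA1, HBB, HBA1 and KRT19 were listed at 0, as were some genes that dividing cells use, among them AATF, so that a 0 here does not show absence. The exception was COL1A1, a collagen gene, and the 12 summed to between 1.20 and 2.42 CPM with DMSO and between 10.4 and 14.0 CPM with WFA, and the part of either marker list in the results was not tested.

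The RNA of nearly the whole set was lower with WFA. The 57 genes together took 0.954% ± 0.0447 (SD, n = 3) of all reads with DMSO and 0.536% ± 0.0302 (SD, n = 3) with WFA. Of the 56 genes tested, 52 fell and 0 rose when edgeR's quasi-likelihood test was adjusted over all 12854 tested genes, of which 24.7% fell and 25.8% rose (threshold 0.05). The number that rose was also 0 at an unadjusted p-value under 0.05 and in DESeq2, and it was 1 with the replicate number as a block, where 30.2% of tested genes rose. The same 52 genes had all WFA libraries below all DMSO libraries, a pattern seen in 28.5% of tested genes, and 0 members had all WFA libraries above, against 29.6%. A fall of over 2-fold was found for 24 members, against 5.2% of tested genes, and a rise of over 2-fold for 0, against 8.11%. The median log2 fold change of the members was -0.93, that of all tested genes was 0.022, and the medians of the members in the pairs of same-numbered libraries were -0.92, -0.84 and -1.08. These are shares of the RNA in each library, so a lower share need not mean fewer transcripts. The RNA was pooled over many cells, so fewer transcripts per cell and fewer cells with the transcript cannot be told apart either.

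**Figure D1:**
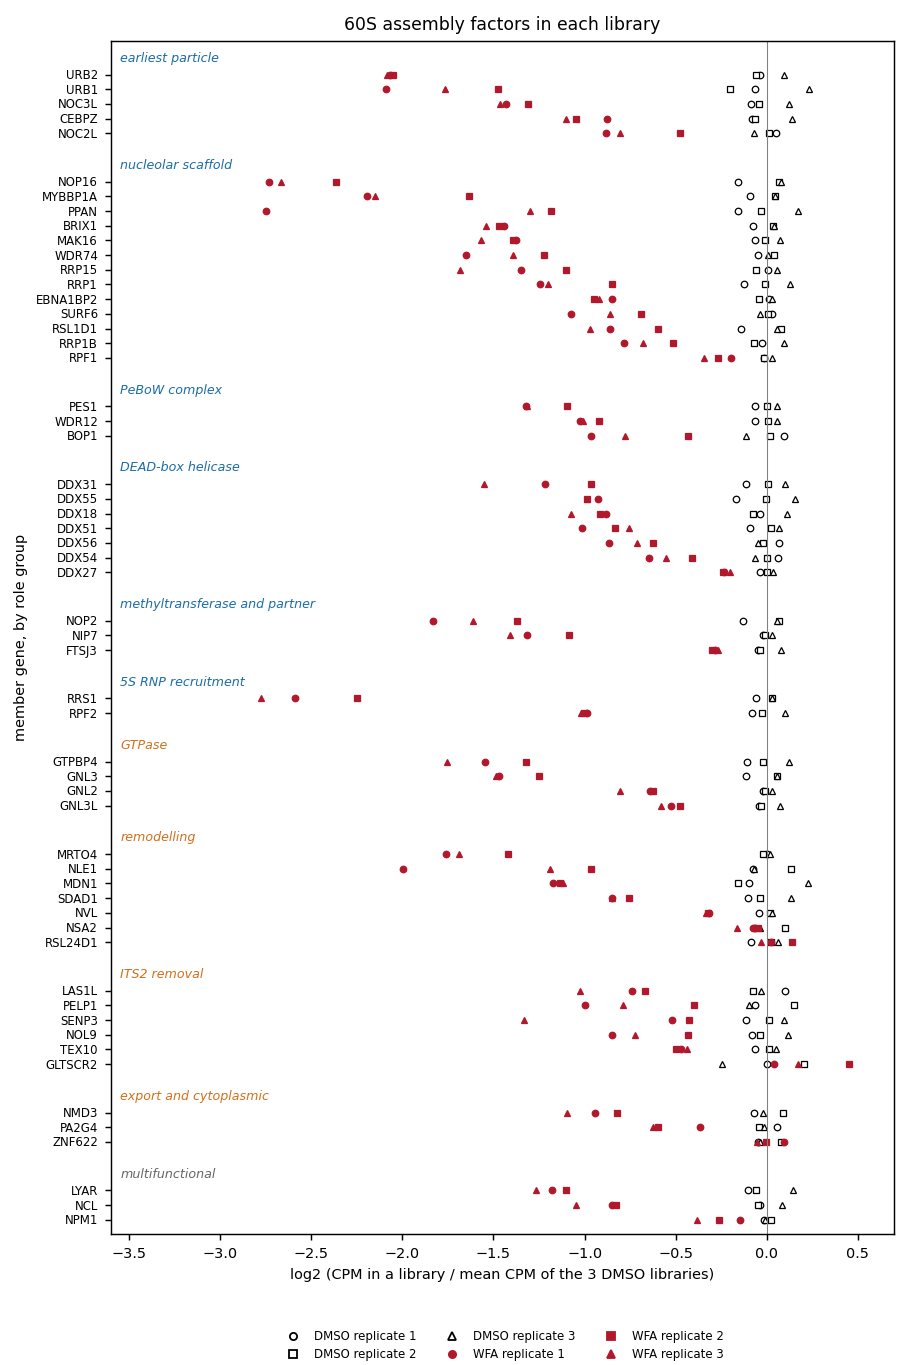
Level of each of the 56 tested assembly factor genes in each library, as the log2 of its CPM over the mean CPM of the 3 DMSO libraries, with genes in rows by role group (blue headings early, orange late, grey neither). Open symbols are DMSO and filled red symbols WFA, and the symbol shape gives the replicate. The WFA symbols lie left of all DMSO symbols for 52 genes and mix with them for NSA2, RSL24D1, GLTSCR2 and ZNF622.

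Levels between genes were compared per kilobase of exon, using the merged exons of GENCODE 29 on GRCh38. With DMSO the members spanned 0.768 to 283 CPM per kb, with a median of 19.9. Nucleolin (NCL) and nucleophosmin (NPM1), abundant proteins that shape the nucleolus, stood highest at 283 and 275.0 CPM per kb and did not separate, because the NCL libraries read 276, 274 and 299.9 and the NPM1 libraries 272, 279.8 and 273. With WFA they did separate, at 157, 159.6 and 137 CPM per kb for NCL and 249, 229.5 and 211 for NPM1. After them came PA2G4 at 103, RSL1D1 at 93.7 and GNL3 at 77.7 CPM per kb with DMSO. Without NPM1 and NCL, the other members took 0.644% ± 0.0304 (SD, n = 3) of reads with DMSO and 0.349% ± 0.0208 (SD, n = 3) with WFA. Across the 56 genes, the fold change was only weakly related to the level with DMSO per kb (Spearman rho 0.25, Pearson r 0.22 on the log2 level, n = 56 genes from the same 6 libraries).

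**Figure D2:**
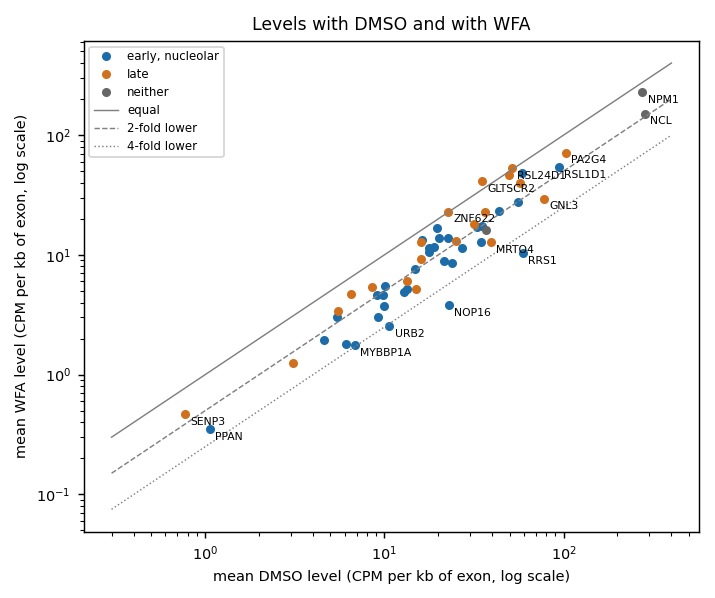
Mean level of each tested assembly factor gene with DMSO (horizontal axis) and with WFA (vertical axis), in CPM per kb of exon on log scales. Points are genes colored by stage, and lines mark equal levels and levels 2-fold and 4-fold lower with WFA. NOP16, RRS1 and URB2 lie beyond the 4-fold line, at 16.7%, 17.4% and 23.9% of their mean DMSO level, while GLTSCR2, RSL24D1 and ZNF622 lie on or above the line of equality.

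The members moved together, and their promoters were searched for short sequences known to be shared by growth genes. RefSeq promoter windows (GRCh38.p14, 250 bases before to 50 bases after the start site) were matched for 49 of the 57. The letters CACGTG, an E-box bound by basic helix-loop-helix factors and the same on both strands, occurred in 15 of the 49, or 30.6%. Of all 27305 promoters 7.43% held it, as did 10.2% of the 9602 promoters of tested genes and 5.26% of 38 promoters of large subunit ribosomal proteins. The share was 31.8% of 22 promoters of further 60S factors and 41.5% of 53 promoters of small subunit factors, as high as or higher than among the members. An ETS motif, CCGGAAGT on either strand, was in 24.5% of the members' windows and in 8.95% of those of tested genes. It was in 36.4% for further 60S factors, 17.0% for small subunit factors and 13.2% for large subunit ribosomal proteins. The GC box GGGCGG was in 57.1% of the members' windows against 69.7% for tested genes, and the palindromic NRF1 consensus in 2.04% against 2.33%. No test was made of these shares, and a match in such a window does not show that a factor binds there.

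All 15 members with an E-box fell, with a median log2 fold change of -1.14 and a range from -1.96 to -0.47. Of the 33 tested members without one in the window 29 fell, with a median of -0.87 and a range from -2.57 to 0.23, so the groups overlapped widely. Members without a matched window (URB2, RRP1B, MAK16, RSL1D1, BOP1, DDX18, RRS1 and RPF2) are missing from this comparison. All of them were placed as early, and RRS1 and URB2 fell by log2 fold changes of -2.52 and -2.07. The E-boxes of the 8 members that hold one and fell over 2-fold are in capitals in the following windows of at most 30 bases, read 5′ to 3′ on the strand of the gene, in order of their fall. In 7 of these genes a copy lies within the first 50 bases transcribed from the RefSeq start site. That of DDX31 begins 22 bases before this site and the first of the copies in MDN1 155 bases before it. In GENCODE 29 transcription of MDN1 starts at base 89819723, so both of its copies lie before that start.
MYBBP1A (chr17:4555340-4555369, minus strand): ggggccggagcaCACGTGtttcgtgtttcg
MRTO4 (chr1:19251807-19251836, plus strand): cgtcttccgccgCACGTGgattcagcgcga
NOP2 (chr12:6568242-6568268, minus strand): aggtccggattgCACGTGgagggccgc
NOC3L (chr10:94362903-94362932, minus strand): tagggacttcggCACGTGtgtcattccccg
NLE1 (chr17:35142274-35142303, minus strand): ctctttctcctcCACGTGgggacgcaggat
PES1 (chr22:30591880-30591909, minus strand): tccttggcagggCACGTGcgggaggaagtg
DDX31 (chr9:132669988-132670017, minus strand): cctcgcgcgtccCACGTGgggtcccgggcc
MDN1 (chr6:89819932-89819961, minus strand): tttctgtcccacCACGTGctgtgttcgcga
MDN1 (chr6:89819750-89819779, minus strand): cgtgtgctcaccCACGTGtggtgcccctct

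The earliest pre-60S particle is organized by URB1 and URB2, large scaffold proteins on the 28S precursor, and by the NOC proteins. All 5 genes of this group fell, with a median log2 fold change of -1.40. URB2 had 62.4, 61.3 and 68.2 CPM with DMSO and 15.3, 15.5 and 15.1 CPM with WFA. Its WFA libraries were almost level with one another and far below all DMSO libraries, at 23.9% of the mean DMSO level, and the log2 fold change was -2.07 (SE 0.10, adjusted p = 9.47e-10 in edgeR). URB1 had 67.2, 61.1 and 82.4 CPM with DMSO and 16.5, 25.3 and 20.7 CPM with WFA, with no overlap and more spread, and fell by a log2 fold change of -1.75 (SE 0.15, adjusted p = 1.89e-07 in edgeR). The log2 ratio of URB1 to URB2 within a library overlapped between the groups, at 0.13 ± 0.14 with DMSO and 0.43 ± 0.30 with WFA (SD, n = 3 each). NOC3L, whose promoter holds the E-box shown above, and CEBPZ, the partner of NOC2L, fell by log2 fold changes of -1.40 (SE 0.10, adjusted p = 5.32e-08 in edgeR) and -1.005 (SE 0.094, adjusted p = 6.14e-07 in edgeR). NOC2L moved least of the 5, with 108.7, 106 and 100.1 CPM with DMSO and 56.9, 75.4 and 60.02 CPM with WFA. Its groups did not overlap either, and its log2 fold change was -0.71 (SE 0.10, adjusted p = 4.95e-05 in edgeR).

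The 13 genes placed as nucleolar scaffold, a group named for factors that hold the domains of the 28S rRNA together in the nucleolus, all fell, with a median of -1.35. NOP16, a nucleolar 60S protein, fell furthest of all members. It had 58.8, 68.8 and 69.1 CPM with DMSO and 9.88, 12.7 and 10.3 CPM with WFA, which leaves 16.7% of the mean DMSO level, and the log2 fold change was -2.57 (SE 0.12, adjusted p = 7.92e-10 in edgeR). MYBBP1A, a nucleolar protein first known as a binding partner of MYB, had 39.9, 43.8 and 43.9 CPM with DMSO and 9.31, 13.7 and 9.58 CPM with WFA. All its WFA libraries were low, replicate 2 less so than the others, and the log2 fold change was -1.96 (SE 0.14, adjusted p = 4.09e-08 in edgeR). BRIX1, MAK16 and WDR74, members of the nucleolar pre-60S core, and RRP15 fell by log2 fold changes of -1.48, -1.44, -1.41 and -1.35. SURF6, EBNA1BP2 and RSL1D1 followed at -0.87, -0.90 and -0.80. At the other end stood RPF1, an rRNA-binding protein of the Brix family, with 100.0, 99.8 and 103 CPM with DMSO and 88.0, 83.8 and 79.4 CPM with WFA. The groups were close but did not overlap, and the log2 fold change was -0.27 (SE 0.082, adjusted p = 0.0127 in edgeR).

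RRP1 and RRP1B are paralogs of a single yeast factor, and both fell. RRP1 had 38.1, 41.3 and 45.5 CPM with DMSO and 17.6, 23.1 and 18.1 CPM with WFA, and its log2 fold change was -1.08 (SE 0.13, adjusted p = 4.94e-06 in edgeR). RRP1B had 101, 97.7 and 109.5 CPM with DMSO and 59.6, 71.8 and 64.2 CPM with WFA, and its log2 fold change was -0.65 (SE 0.093, adjusted p = 3.57e-05 in edgeR). The balance between the paralogs shifted toward RRP1B, since the log2 ratio of RRP1 to RRP1B was -1.30 ± 0.087 with DMSO and -1.74 ± 0.096 with WFA (SD, n = 3 each), with no overlap. PPAN was counted with few reads, with 2.46, 2.68 and 3.08 CPM with DMSO and 0.408, 1.21 and 1.12 CPM with WFA, and 59.8% of its exon bases in GENCODE 29 are shared with other genes, chiefly the readthrough gene PPAN-P2RY11, which had 0 counts. It fell by a log2 fold change of -1.58 (SE 0.33, adjusted p = 0.00107 in edgeR).

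PES1, BOP1 and WDR12 form the PeBoW complex, which is needed to separate the 28S and 5.8S precursors. All its subunits fell, but by unequal amounts. PES1 had 118, 124 and 129 CPM with DMSO and 49.4, 57.8 and 49.6 CPM with WFA, and its log2 fold change was -1.24 (SE 0.091, adjusted p = 4.76e-08 in edgeR). WDR12 had 79.4, 83.6 and 86.6 CPM with DMSO and 40.9, 44.0 and 41.4 CPM with WFA, and its log2 fold change was -0.98 (SE 0.088, adjusted p = 3.82e-07 in edgeR). BOP1 had 89.5, 84.8 and 77.4 CPM with DMSO and 43.05, 62.2 and 48.9 CPM with WFA, with WFA replicate 2 nearest to the DMSO libraries, and its log2 fold change was -0.71 (SE 0.12, adjusted p = 0.000173 in edgeR). None of these genes overlapped between the groups. The log2 ratio of PES1 to BOP1 went from 0.56 ± 0.17 with DMSO to 0.039 ± 0.15 with WFA (SD, n = 3 each) without overlap. That of WDR12 to BOP1 overlapped, at -0.01 ± 0.17 and -0.27 ± 0.22 (SD, n = 3 each).

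DEAD-box helicases unwind the rRNA and displace small nucleolar RNAs. Of the 8 members, 7 could be tested and all of these fell, with a median log2 fold change of -0.87. DDX31 had 23.5, 25.5 and 27.2 CPM with DMSO and 10.9, 13.0 and 8.65 CPM with WFA. It was the lowest of the helicases relative to DMSO, at 42.8% of the mean, with a log2 fold change of -1.22 (SE 0.15, adjusted p = 7.84e-06 in edgeR). DDX55 had 75.4, 84.5 and 94.2 CPM with DMSO and 44.5, 42.7 and 42.7 CPM with WFA, with the DMSO libraries the more variable, and its log2 fold change was -0.97 (SE 0.098, adjusted p = 1.33e-06 in edgeR). DDX18, DDX51, DDX56 and DDX54 lay between, with log2 fold changes of -0.96, -0.87, -0.73 and -0.54. DDX27 had 105, 107 and 110.1 CPM with DMSO and 91.3, 90.9 and 93.4 CPM with WFA. Its groups were tight and did not overlap, yet the change was small, at -0.23 (SE 0.079, adjusted p = 0.027 in edgeR). The call on DDX27 was lost in each fit that left out a DMSO library or WFA replicate 1 or 2, with edgeR adjusted p-values up to 0.0712, while its log2 fold change stayed between -0.25 and -0.21. DDX24 had 0 counts in all 6 libraries, which allows up to 3 counts in each, and WDR46 and AATF, small subunit factors that dividing cells also use, were at 0 or 1 count. A listing at 0 here is therefore no measure of expression.

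NOP2 is an rRNA methyltransferase of the nucleolus and NIP7 its small partner. NOP2 had 39.2, 45.0 and 44.7 CPM with DMSO and 12.1, 16.6 and 14.1 CPM with WFA, and its log2 fold change was -1.59 (SE 0.13, adjusted p = 1.31e-07 in edgeR). Of its exon bases 54.4% are shared with another gene model of GENCODE 29 that has no row in the counts. NIP7 had 100.2, 101 and 104 CPM with DMSO and 40.9, 48.0 and 38.3 CPM with WFA, and its log2 fold change was -1.26 (SE 0.097, adjusted p = 7.64e-08 in edgeR). The log2 ratio of NOP2 to NIP7 fell from -1.25 ± 0.097 to -1.58 ± 0.16 (SD, n = 3 each) without overlap. FTSJ3, another methyltransferase of the early 60S particle, had 81.8, 82.4 and 89.3 CPM with DMSO and 69.4, 68.5 and 70.3 CPM with WFA. It kept 82.1% of its DMSO level, the groups did not overlap, and its log2 fold change was -0.28 (SE 0.083, adjusted p = 0.0102 in edgeR).

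RRS1 and RPF2 work as a pair that brings the 5S rRNA with its ribosomal proteins to the particle. Both fell, RRS1 by much more than RPF2. RRS1 had 97.1, 103 and 103 CPM with DMSO and 16.8, 21.3 and 14.8 CPM with WFA, which leaves 17.4% of the mean, and its log2 fold change was -2.52 (SE 0.12, adjusted p = 6.81e-10 in edgeR). RPF2 had 129, 134 and 146 CPM with DMSO and 68.9, 68.1 and 67.5 CPM with WFA, and its log2 fold change was -1.003 (SE 0.084, adjusted p = 1.96e-07 in edgeR). Within each library the log2 ratio of RRS1 to RPF2 was -0.43 ± 0.064 with DMSO and -1.97 ± 0.26 with WFA (SD, n = 3 each), and the groups did not overlap. This was the largest shift among the 7 ratios of partners or paralogs that were formed, which were chosen with the values known and are given without a test.

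**Figure D3:**
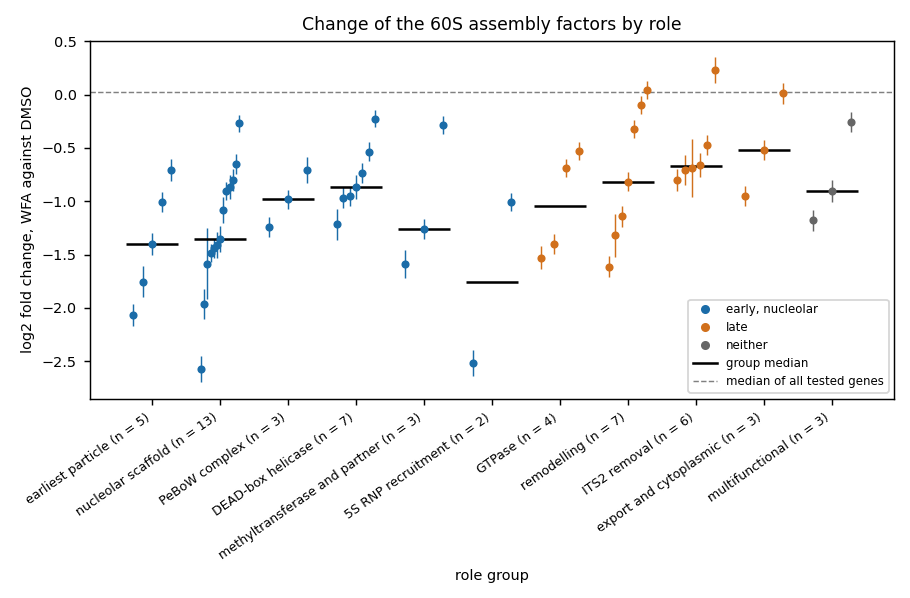
Log2 fold change of each tested assembly factor gene, WFA against DMSO, by role group, with bars for the standard error of the edgeR fit. Black lines mark the group medians and the dashed line the median of all tested genes, 0.022. The group medians are -1.40 for the earliest particle and -1.35 for the nucleolar scaffold, and -0.67 and -0.52 for the ITS2 and export groups.

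Among the genes placed as late, GTPases gate successive steps of maturation, and all 4 fell. GTPBP4 had 91.1, 96.6 and 107 CPM with DMSO and 33.6, 39.2 and 29.03 CPM with WFA, and its log2 fold change was -1.53 (SE 0.11, adjusted p = 4.54e-08 in edgeR). GNL3, also called nucleostemin and abundant in stem and tumor cells, had 238, 268 and 267 CPM with DMSO and 93.0, 108 and 92.1 CPM with WFA, and its log2 fold change was -1.40 (SE 0.094, adjusted p = 1.96e-08 in edgeR). Its relative GNL3L, a related GTPase of the nucleolus, had 144, 145 and 156 CPM with DMSO and 103, 107 and 99.0 CPM with WFA. All of its WFA libraries were below its DMSO libraries, and its log2 fold change was -0.53 (SE 0.082, adjusted p = 8.18e-05 in edgeR). GNL2 fell by a log2 fold change of -0.69. The log2 ratio of GNL3 to GNL3L was 0.796 ± 0.083 with DMSO and -0.076 ± 0.086 with WFA (SD, n = 3 each), with no overlap.

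Of the 7 remodelling factors, 5 fell and both NSA2 and RSL24D1 did not pass the test. MRTO4, which holds the place of the stalk protein until a late step, had 111, 109.5 and 112 CPM with DMSO and 32.7, 41.5 and 34.4 CPM with WFA. The groups were far apart, and its log2 fold change of -1.61 (SE 0.099, adjusted p = 7.95e-09 in edgeR) was the lowest among late factors. NLE1, a docking site for the ATPase MDN1, had 16.1, 18.6 and 16.2 CPM with DMSO and 4.25, 8.70 and 7.44 CPM with WFA. It was lowest in WFA replicate 1, and its log2 fold change was -1.32 (SE 0.20, adjusted p = 6.46e-05 in edgeR). MDN1, a giant ATPase that strips factors from the particle, SDAD1 and the ATPase NVL fell by log2 fold changes of -1.14, -0.82 and -0.32. RSL24D1, a placeholder that resembles a ribosomal protein and leaves in the cytoplasm, had 145, 157 and 161 CPM with DMSO and 157, 171 and 151 CPM with WFA. NSA2 had 235, 264 and 240.0 CPM with DMSO and 234, 238 and 220.2 CPM with WFA. The groups overlapped for both, and the log2 fold changes were 0.046 (SE 0.086, adjusted p = 0.682 in edgeR) for RSL24D1 and -0.095 (SE 0.085, adjusted p = 0.371 in edgeR) for NSA2. RSL24D1 has 9 pseudogenes named after it in GENCODE 29, and 58.7% of the exon bases of NSA2 are shared with genes on the opposite strand, 51.2% with FAM169A and 7.5% with GFM2. FAM169A had 98, 81 and 72 counts with DMSO and 135, 137 and 94 with WFA, and GFM2 had 1030, 882 and 748 with DMSO and 2125, 2010 and 1863 with WFA. Reads from both strands cannot be told apart where strand is not recorded, and the part of these genes in the values of NSA2 was not tested. The same limit holds for other members that share exon bases with opposite-strand genes, among them NIP7 (20.2% with COG8), MAK16 (19.2% with TTI2) and FTSJ3 (16.8% with PSMC5).

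ITS2 is cut by LAS1L with the kinase NOL9, and PELP1, TEX10 and the SUMO protease SENP3 belong to the complex that works with them. These 5 genes fell, and the median of the group, with GLTSCR2, was -0.67. WDR18, another subunit of that complex, was not a member and was listed with the further 60S factors. It had 15.1, 13.9 and 12.2 CPM with DMSO and 10.6, 14.1 and 12.6 CPM with WFA. The groups overlapped, and its log2 fold change was -0.15 (SE 0.15, adjusted p = 0.422 in edgeR). LAS1L had 96.1, 85.0 and 87.7 CPM with DMSO and 53.7, 56.4 and 44.0 CPM with WFA, and its log2 fold change was -0.80 (SE 0.10, adjusted p = 1.31e-05 in edgeR). PELP1 had 34.7, 40.1 and 33.9 CPM with DMSO and 18.1, 27.5 and 20.9 CPM with WFA. Its WFA replicate 2 was closest to the DMSO libraries, and its log2 fold change was -0.71 (SE 0.14, adjusted p = 0.0007 in edgeR). NOL9 and TEX10 had log2 fold changes of -0.66 and -0.47. SENP3 was counted with only 36 or 37 reads in a DMSO library and 24, 26 and 12 reads in the WFA libraries, and 41.2% of its exon bases are shared with the readthrough gene SENP3-EIF4A1, which had at most 1 count. Its log2 fold change of -0.69 (SE 0.27, adjusted p = 0.0469 in edgeR) lost its call without any DMSO library or without WFA replicate 1 or 3 (edgeR adjusted p-values from 0.0618 to 0.185) and in DESeq2 (DESeq2 adjusted p = 0.122).

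GLTSCR2 (NOP53), the factor that recruits the exosome to trim ITS2, stood apart as the member with the highest log2 fold change. It had 188, 217 and 159 CPM with DMSO and 194, 257 and 212 CPM with WFA. The groups overlapped, but within each pair of same-numbered libraries WFA was the higher, by log2 differences of 0.039, 0.24 and 0.42. The log2 fold change was 0.23 (SE 0.12, adjusted p = 0.126 in edgeR), and it passed the threshold when the replicate number was added as a block (adjusted p = 0.00771 in edgeR) and when DMSO replicate 2 was left out (log2 fold change 0.34, adjusted p = 0.0383 in edgeR). It was 0.12 without DMSO replicate 3 (adjusted p = 0.435 in edgeR) and 0.11 without WFA replicate 2 (adjusted p = 0.488 in edgeR).

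The 3 genes of export and cytoplasmic release had the highest group median, -0.52, and 2 of them fell. NMD3, the adaptor that links the 60S particle to the exportin, had 116, 130.2 and 121 CPM with DMSO and 63.6, 69.3 and 57.4 CPM with WFA. It was lower in all WFA libraries, with a log2 fold change of -0.95 (SE 0.092, adjusted p = 8.9e-07 in edgeR). PA2G4, a growth-regulated protein related to the export factor Arx1 of yeast, had 405, 378 and 385 CPM with DMSO and 302, 258 and 253 CPM with WFA. WFA replicate 1 stood nearest to the DMSO libraries, and the log2 fold change was -0.52 (SE 0.092, adjusted p = 0.000258 in edgeR). ZNF622, which acts on the particle in the cytoplasm, had 37.4, 40.8 and 37.7 CPM with DMSO and 41.3, 38.5 and 37.2 CPM with WFA. Its libraries overlapped fully, and its log2 fold change was 0.013 (SE 0.097, adjusted p = 0.924 in edgeR).

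The 3 multifunctional nucleolar proteins also fell, by very different amounts. NCL had 1912, 1897 and 2078 CPM with DMSO and 1087, 1106 and 951 CPM with WFA, and its log2 fold change was -0.90 (SE 0.099, adjusted p = 2.91e-06 in edgeR). LYAR, a nucleolar zinc finger protein, had 79.4, 81.9 and 94.2 CPM with DMSO and 37.6, 39.7 and 35.4 CPM with WFA, and its log2 fold change was -1.18 (SE 0.098, adjusted p = 1.69e-07 in edgeR). NPM1 had 1042, 1071 and 1045 CPM with DMSO and 952, 878 and 808 CPM with WFA. The groups did not overlap, yet its log2 fold change was only -0.26 (SE 0.094, adjusted p = 0.0306 in edgeR), and the call was lost without DMSO replicate 1 or 2 or WFA replicate 2 or 3, with edgeR adjusted p-values up to 0.113. NPM1 has 45 pseudogenes named after it in GENCODE 29, so reads assigned to it are uncertain. NCL hosts SNORA75, SNORD20 and SNORD82 in its introns, and small nucleolar RNAs also lie in introns of URB1, PPAN, DDX55 and GNL3.

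Early and late factors were then compared. All 33 tested early factors fell, with a median log2 fold change of -1.005 and a range from -2.57 to -0.23. Of the 20 late factors 16 fell, with a median of -0.69 and a range from -1.61 to 0.23. The 4 members that did not pass the test (NSA2, RSL24D1, GLTSCR2 and ZNF622) were all placed as late. The stage of NSA2 and RSL24D1 is uncertain, however. Over 2-fold falls were found for 18 early and 5 late genes. The means were -1.16 ± 0.58 (SD, n = 33 genes) and -0.698 ± 0.52 (SD, n = 20 genes). The difference between the medians was -0.32, and in the pairs of same-numbered libraries it was -0.41, -0.43 and -0.40. Without WFA replicate 2 the difference was -0.20. The distributions overlapped, since 5 late factors fell more than the median early factor, and 28 early factors fell more than the median late factor. Of those 5, GTPBP4, GNL3 and MRTO4 also have early roles, so that their stage is uncertain. The same holds for NVL, NSA2 and RSL24D1. Without these 6 late factors, 12 of the other 14 fell, and their median was again -0.69. Genes are not replicates of a condition, so no test was made of the difference between stages.

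Other genes of ribosome assembly were described by lists from general knowledge. Of 28 further 60S factors, 19 fell and 1 rose, with a median log2 fold change of -0.64. With the replicate block 22 of them fell and 1 rose, where 28.8% of all tested genes fell and 30.2% rose. The smallest p-values belonged to NIFK, HEATR3 and CCDC86, with log2 fold changes of -1.59 (SE 0.11), -1.44 (SE 0.11) and -1.74 (SE 0.14). EFTUD1, the GTPase that acts in the release of EIF6 from the 60S subunit, rose by a log2 fold change of 0.35 (SE 0.10, adjusted p = 0.0096 in edgeR). Of 59 tested small subunit factors, 51 fell and 1 rose, with a median of -0.97 beside -0.93 for the members, and with the replicate block 52 fell and 1 rose. WDR3, WDR43 and LTV1 had the smallest p-values there, with log2 fold changes of -1.95 (SE 0.096), -1.89 (SE 0.11) and -1.51 (SE 0.092), and TSR2 was the gene that rose, with a log2 fold change of 0.40 (SE 0.11, adjusted p = 0.00814 in edgeR).

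The ribosomal proteins that these factors place in the 60S subunit did not follow. Of 47 genes for large subunit proteins, 1 fell and 0 rose in edgeR's test, with 2 higher at an unadjusted p-value under 0.05 and 0 in DESeq2. With the replicate block 11 of the 47 rose, where 30.2% of all tested genes rose. Their median log2 fold change was 0.081, and their middle 50 percent lay between 0.056 and 0.17. RPL36A was the exception, at 7.81, 9.16 and 13.8 CPM with DMSO and 3.35, 3.79 and 3.54 CPM with WFA. It was lower in all WFA libraries, with a log2 fold change of -1.52 (SE 0.22, adjusted p = 5.1e-05 in edgeR). RPL36A, like RPL17 and RPL39, was counted with few reads for this list. The next lowest gene, RPL41, had a mean of 242 CPM with DMSO. Whether so few reads stand for all RNA of RPL36A was not tested. The plot of cumulative shares shows the assembly factors of both subunits to the left of all genes, and the ribosomal proteins in a narrow band near 0.

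**Figure D4:**
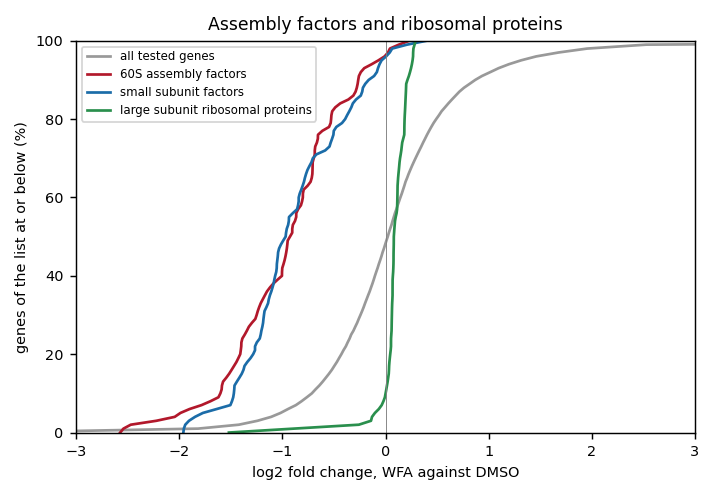
Cumulative share of genes (vertical axis, percent) at or below a log2 fold change, WFA against DMSO (horizontal axis), for all 12854 tested genes, the 56 tested 60S assembly factors, 59 small subunit factors and 47 large subunit ribosomal protein genes. The curves cross 50 percent at 0.022, -0.93, -0.97 and 0.081.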

How the data were processed

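RNA from THP1 cells was sequenced from TruSeq RNA v2 libraries. The submitters' processing notes name hg38, bcl2fastq 2.19, Trimmomatic, Bowtie2, Picard, featureCounts and DESeq2 without versions for the others, and the annotation and the use of strand are not given in the sources used here. The authors deposited whole-number counts per gene without normalization, beside counts scaled by them, group means and their own comparison (fold changes, p-values, dispersions), which were not used.

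Counts of all 26485 genes were fitted in edgeR 4.0.16 (R 4.3.3) with filterByExpr (minimum count 10), TMM factors and the quasi-likelihood test on group, with Benjamini-Hochberg adjustment over 12854 genes at a threshold of 0.05. The fit was also run on simulated data with known changes in few genes and no differences between experiments. Here 50.5% of tested genes were called, so that run does not show how the fit performs on these data. CPM used TMM-scaled library sizes, and log2 CPM a prior count of 2. Gene models came from GENCODE 29 and promoters from RefSeq. Libraries of a group differed by more than sampling noise (chi-square per gene 5.98 to 11.1), so none was merged. Replicate numbers pair the libraries, since the descriptions give same-numbered libraries a common code and their deviations from group means correlated by 0.22, 0.33 and 0.25. Exact permutation of 3 and 3 libraries can give no p below 0.1. The p-values of edgeR set the group difference against a spread between libraries that is moderated over all tested genes. Prior degrees of freedom were 10.8, beside 4 residual ones. Precision depends on the total counts and on the spread between libraries, and limits from 3 counts cover counting error only.

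The members, stages, lists and motifs were chosen with earlier results of these data known. Any member could be named. Values in every library were given, in each role group, for the genes with the lowest 2 and the highest fold change, for whole groups of up to 3 genes and for members that rose or did not pass. RRP1, RRP1B, PPAN, SENP3, WDR18 and RPL36A were added after their values were seen. Alternatives were the replicate block, DESeq2 1.42.0, other scalings and filters, a robust fit and leaving out each library.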

Additional observations from a re-analysis of the deposited data

How the results depend on the processing

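The number of members lower with WFA was 52 and stayed between 49 and 52 over all alternatives, and no member that fell changed direction. The number higher was 0, but 1 with the replicate block (GLTSCR2), and from 0 to 1 with each library left out. The replicate block changed no other call among the members. It leaves 2 residual degrees of freedom, and edgeR then sets the prior degrees of freedom to infinity, where they were 10.8 without the block. The median log2 fold change of the members was -0.93 and stayed between -0.96 and -0.89 with each library left out, and the difference between early and late medians was -0.32 and ranged from -0.37 without WFA replicate 3 to -0.20 without WFA replicate 2. The cause was not tested. Sign changes were found for ZNF622 and RSL24D1, which were near 0 throughout. ZNF622 was 0.013, and it was -0.0074 in DESeq2, -0.072 with total counts in place of TMM, -9.8e-05 with no filter on low counts, and between -0.029 and 0.047 with a library left out. RSL24D1 was 0.046, and it was -0.040 with total counts and between -0.0041 and 0.086 with a library left out. Total counts moved the median of all genes from 0.022 to -0.063. With a minimum count of 50, PPAN and SENP3 were not tested. Few reads limit what can be said of both, and of DDX24 nothing can be said.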
